A study of Mus musculus with 36 samples.

Results

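The 39 Hox genes of the mouse were followed across RNA sequencing libraries of fetal neural stem cells (NSCs) and of the extracellular vesicles (EVs) that these cells shed into their medium. They were taken as every symbol made of Hox, a cluster letter from a to d and a number, which gave 39 of the 40205 features counted. NSCs came from the dorsal telencephalon of C57BL/6J mouse fetuses at gestational day 12.5, labelled WT, with tissue pooled by sex within a pregnancy and grown as neurospheres to passages 7 to 10. Each of 3 pregnancies (sets 3, 4 and 5) gave a female culture and a male culture, which were kept for 5 days at 0, 120 or 320 mg/dL ethanol, and each sample joined 4 flasks. Each culture and dose gave 1 EV and 1 cell library, 18 of either kind, with 3 pregnancies behind each of the 12 combinations of location (EVs or cells), sex and dose. Libraries of 1 culture at different doses share their cells of origin. The study's methods give the strain as C57BL/6J (Ai14), a line with a silent Cre reporter, which all groups share. The values describe expanded cultures and not fresh tissue.

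Hox genes encode homeodomain transcription factors and lie in 4 clusters, Hoxa to Hoxd. Genes at one end of a cluster (paralogue groups 1 to 3) are switched on first and closest to the head, and genes at the other end (groups 9 to 13) last and toward the tail. In the developing nervous system they are used in hindbrain and spinal cord, and the forebrain, from which these cultures were taken, is known as a region without Hox expression, where Polycomb proteins hold the clusters silent. The question addressed was therefore how much Hox RNA was present in the cells, how much in the EVs, and whether either moved with ethanol, sex or pregnancy.

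Promoter sequences of the Hox genes that the results turn on are shown with every CG dinucleotide in capitals, since CG-rich starts are a known property of genes under Polycomb control. They run from 250 bases before the start of the gene to 50 after it and come from RefSeq on GRCm38.p6, which is not the build of the counts, and for genes on the minus strand the run is that of the gene's own strand. Hoxd3 carried the most counts in both locations and lies at chr2:74711743-74712042 on the plus strand. Hoxd11 had the largest difference between EVs and cells of the 5 Hox genes tested, and its second listed start lies at chr2:74682073-74682372 on the plus strand. Hoxa10 was the next Hox gene after Hoxd3 in mean level per kb of gene span in cells, with its first listed start at chr6:52234890-52235189 on the minus strand. Hoxd4 had 0 counts in every library, and its start lies at chr2:74721728-74722027 on the plus strand.
Hoxd3: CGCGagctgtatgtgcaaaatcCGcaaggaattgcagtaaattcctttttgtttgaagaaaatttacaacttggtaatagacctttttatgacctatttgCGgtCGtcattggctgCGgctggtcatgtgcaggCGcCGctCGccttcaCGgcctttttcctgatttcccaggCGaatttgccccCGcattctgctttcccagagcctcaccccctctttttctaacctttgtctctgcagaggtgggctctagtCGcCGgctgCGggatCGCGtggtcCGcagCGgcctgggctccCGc
Hoxd11: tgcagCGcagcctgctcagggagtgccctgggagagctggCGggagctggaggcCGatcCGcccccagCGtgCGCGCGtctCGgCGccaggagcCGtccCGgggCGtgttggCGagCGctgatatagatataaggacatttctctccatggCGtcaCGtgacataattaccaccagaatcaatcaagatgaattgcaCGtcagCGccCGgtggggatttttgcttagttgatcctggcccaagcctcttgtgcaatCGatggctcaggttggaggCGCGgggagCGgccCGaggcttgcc
Hoxa10: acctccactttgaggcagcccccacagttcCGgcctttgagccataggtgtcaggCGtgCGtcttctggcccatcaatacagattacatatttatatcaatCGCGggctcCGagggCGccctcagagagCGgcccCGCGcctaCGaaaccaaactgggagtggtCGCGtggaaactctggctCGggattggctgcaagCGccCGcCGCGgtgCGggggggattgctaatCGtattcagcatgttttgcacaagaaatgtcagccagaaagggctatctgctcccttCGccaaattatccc
Hoxd4: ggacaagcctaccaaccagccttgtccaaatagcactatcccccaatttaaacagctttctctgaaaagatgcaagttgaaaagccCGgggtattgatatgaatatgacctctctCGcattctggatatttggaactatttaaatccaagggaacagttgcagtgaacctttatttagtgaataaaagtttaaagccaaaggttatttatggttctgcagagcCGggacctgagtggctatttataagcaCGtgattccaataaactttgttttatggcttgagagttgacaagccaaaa

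The CG dinucleotide occurred 20 times in the Hoxd3 run, 25 times in that of Hoxd11, 21 times in that of Hoxa10 and 4 times in that of Hoxd4. The other listed start of Hoxd11 held 4 and that of Hoxa10 held 12. Among the other Hox genes with an entry and 0 counts in every library, Hoxa5 held 29, Hoxa6 26, Hoxb4 14 and Hoxd8 6. Hoxa9, with 216 counts over all libraries, held 4. Over the 24 promoters listed for 22 Hox genes the median was 14.5, beside a median of 7 over all 32851 promoters of the same length (27025 genes). The promoters of Hoxb3, Hoxb9, Hoxc6, Hoxc12 and Hoxc13 are among those without an entry in that table.

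The clusters also hold microRNA genes, whose mature products share seeds (bases 2 to 8, in capitals) within the miR-10 and the miR-196 family. They are shown because their loci were counted with the Hox genes around them.
miR-10a-5p: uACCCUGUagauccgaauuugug
miR-10b-5p: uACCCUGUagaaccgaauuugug
miR-196a-5p: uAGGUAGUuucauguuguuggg
miR-196b-5p: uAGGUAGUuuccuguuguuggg
Mir10a, Mir10b, Mir196a-1, Mir196b and Mir615 had 0 counts in all 36 libraries, and Mir196a-2 was at 0 in EVs and at 0 to 3 counts in cells. Of 964 microRNA features within another RefSeq gene 99.5% were at 0 throughout, and of 264 others 51.5%, so these zeros are not read as a measurement of the loci. Nor do the counts, which are of features from a total RNA preparation, measure the mature microRNAs.

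Values are CPM, a gene's count divided by the library's total in M counts (mega, as in Mb). That total had a median of 3.83 M and a range of 0.959 to 5.51 M over the 18 EV libraries, and a median of 37.8 M and a range of 26.6 to 55.3 M over the 18 cell libraries. The level that 3 counts stand for, which is the most that a count of 0 leaves room for, was therefore 0.544 to 3.13 CPM in an EV library and 0.0543 to 0.113 CPM in a cell library. These limits, and the intervals given below, cover counting error only. The labelled tissue was checked against its markers. In cells the neural progenitor factor Pax6 stood at 22.1 ± 8.94 CPM (SD, n = 18), the dorsal marker Emx1 at 0.244 ± 0.114 CPM (3 to 18 counts) and the oligodendrocyte lineage factor Olig1 at 361 ± 160 CPM. Sox2, a defining NSC gene that lies within the noncoding gene Sox2ot, had 0 counts in all 36 libraries. The summed level of the 9 telencephalic progenitor markers was 961 to 3847 CPM in cells (1 of the 9, Sox2, at 0), beside 10.2 to 222 CPM for 8 midbrain and hindbrain markers and 1.496 to 6.964 CPM for 5 spinal cord markers. In EVs the same sums were 193 to 898, 9.33 to 69.1 and 23.9 to 117 CPM. The spinal cord markers, like the Hox genes, were thus higher in EVs, and their part in the Hox counts was not tested.

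Counts were present for 30 of the 39 Hox genes in EVs and for 30 in cells, and the remaining 9 were at 0 in all 36 libraries. These 9 were Hoxa4, Hoxa5, Hoxa6, Hoxb2, Hoxb4, Hoxb5, Hoxb6, Hoxd4 and Hoxd8. In the Hoxa cluster 8 of 11 genes had counts, in Hoxb 6 of 10, in Hoxc 9 of 9 and in Hoxd 7 of 9. By paralogue group, 7 of 8 genes of groups 1 to 3 had counts, 7 of 15 of groups 4 to 8 and 16 of 16 of groups 9 to 13. At least 10 counts in a library were reached by 7 Hox genes in EVs and 10 in cells.

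The 9 genes without counts shared a position. In RefSeq, 8 of them lie wholly within the span of another gene, and none of the 30 with counts does (0 of 30). In GENCODE on GRCm39, 8 of the 9 and 7 of the 30 do, and with either annotation all 9 do. Hoxd4 lies within Hoxd3, Hoxa5 and Hoxa6 within Hoxa3 and Hoxaas3, and Hoxb5 and Hoxb6 within the noncoding gene Hoxb5os. Across the series, of 911 protein-coding features that lie within another RefSeq gene, 862 (94.6%) had 0 counts in all libraries, beside 952 of 20801 (4.58%) of those that do not. By GENCODE the shares were lower, 48.3% of the features inside another gene on the same strand only and 36.5% of those on the opposite strand only, beside 2.99% of those not inside one. A count of 0 for these 9 genes is therefore not read as a measurement of their level, and the cause was not tested. The strand and overlap settings of the counting are not given in the sources used here, so the counts of Hoxd3, which spans Hoxd4, and of Hoxb3, which spans Hoxb4 in RefSeq, are uncertain as to which gene the reads came from.

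**Figure D1:**
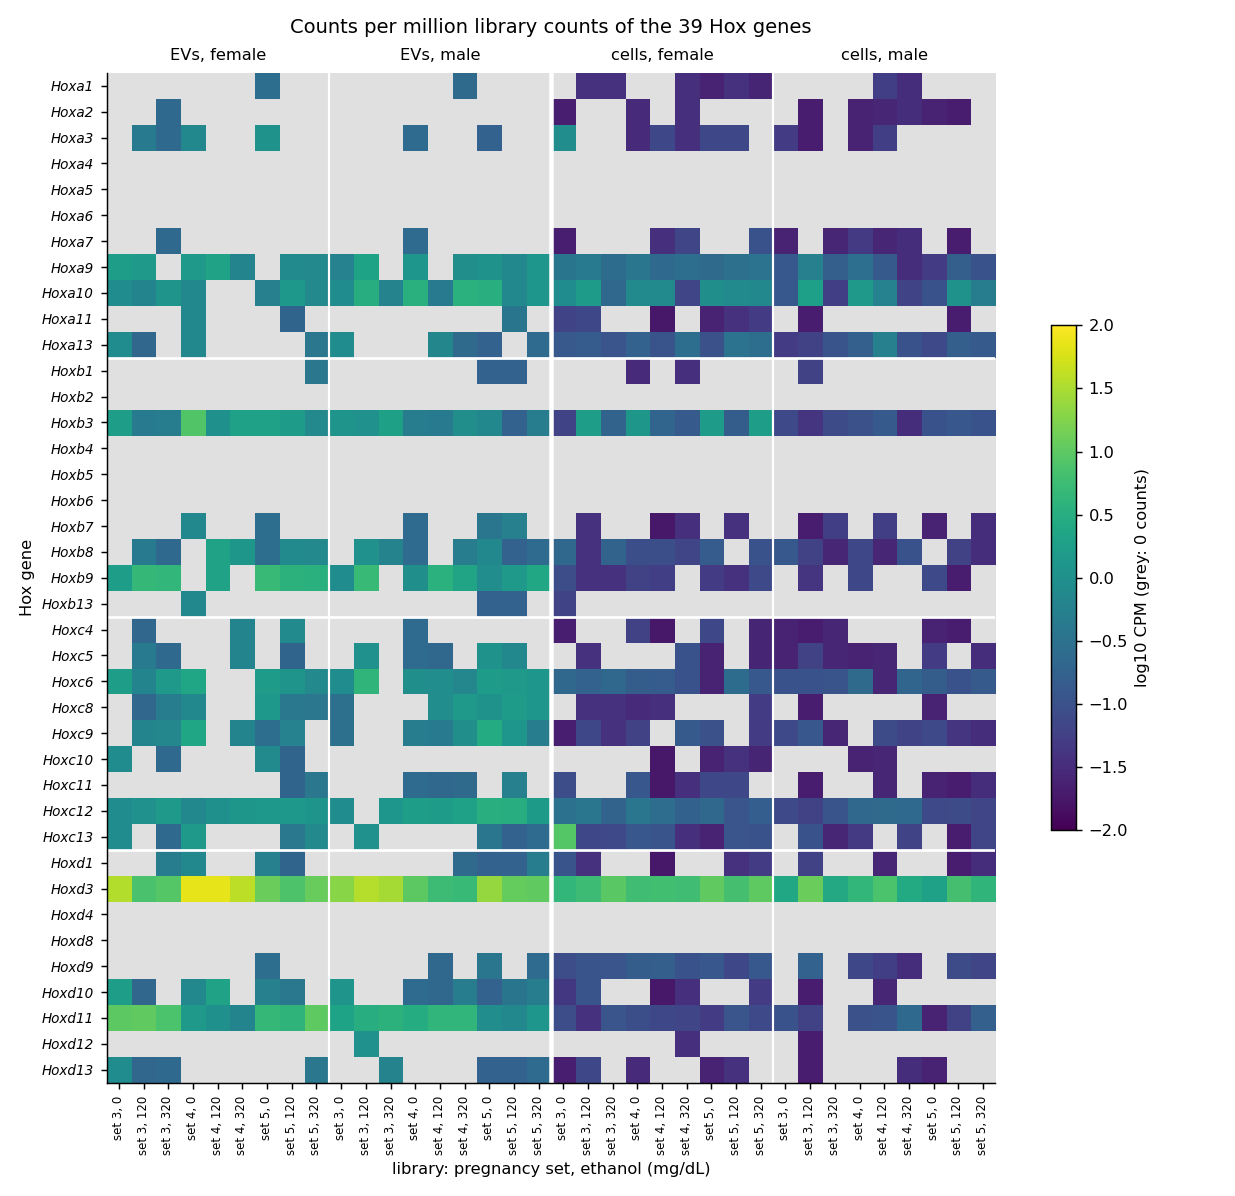
Level of each of the 39 Hox genes (rows, by cluster and paralogue group) in each of the 36 libraries (columns, by location, sex, pregnancy set and ethanol in mg/dL). Colour gives log10 CPM and grey 0 counts. Rows of 9 genes are grey throughout, Hoxd3 has the highest mean in both locations, and Hoxd11 and Hoxb9 are brighter in EVs than in cells.

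Summed over the 39 genes, Hox RNA took 19.8 to 94.9 CPM of an EV library (mean 40.1 ± 21.1, SD, n = 18) and 2.90 to 17.1 CPM of a cell library (9.16 ± 4.32, SD, n = 18). The EV library exceeded the cell library of the same culture and dose in 18 of 18 pairs, by 2.06-fold to 14.9-fold (median 3.61-fold). In such bulk libraries a change in the share of cells with a transcript cannot be told apart from a change in the transcript per cell. Hoxd3 alone made up 21.0 to 86.2% of the Hox counts in EVs and 25.7 to 83.5% in cells. Without Hoxd3 the sums were 7.75 to 24.3 CPM in EVs and 0.844 to 12.7 CPM in cells, and the ranges then overlapped through 1 cell library, the set 3 female control described below. EV libraries were smaller and showed fewer of the genes at once, 7 to 22 (median 16.5) against 14 to 26 in cells (median 19.5). At a common depth of 0.959 M counts, the smallest total, 9.34 ± 1.96 Hox genes were expected with counts in an EV library and 3.02 ± 0.92 in a cell library (SD, n = 18 each). For all features the same calculation gave 16660 ± 1364 and 15090 ± 293.

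Of the 30 Hox genes with counts, 27 had a higher mean CPM in EVs and 3 a lower one (Hoxa2, Hoxc13 and Hoxd9), with a median ratio of 6.21. Over all 29041 features with counts in both locations, 56.3% were higher in EVs with a median ratio of 1.36, and over the 18172 features whose mean in cells lay within the range of the Hox genes, 76.4% with a median ratio of 2.74. A higher value in EVs was therefore common among features within that range. The range ran from 0.00304 CPM (Hoxd12) to 6.05 CPM (Hoxd3), and the next Hox gene below Hoxd3 was Hoxa10 at 0.707 CPM. The features were not matched to the level of each Hox gene, so the median ratios of 6.21 and 2.74 are not of like levels.

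**Figure D2:**
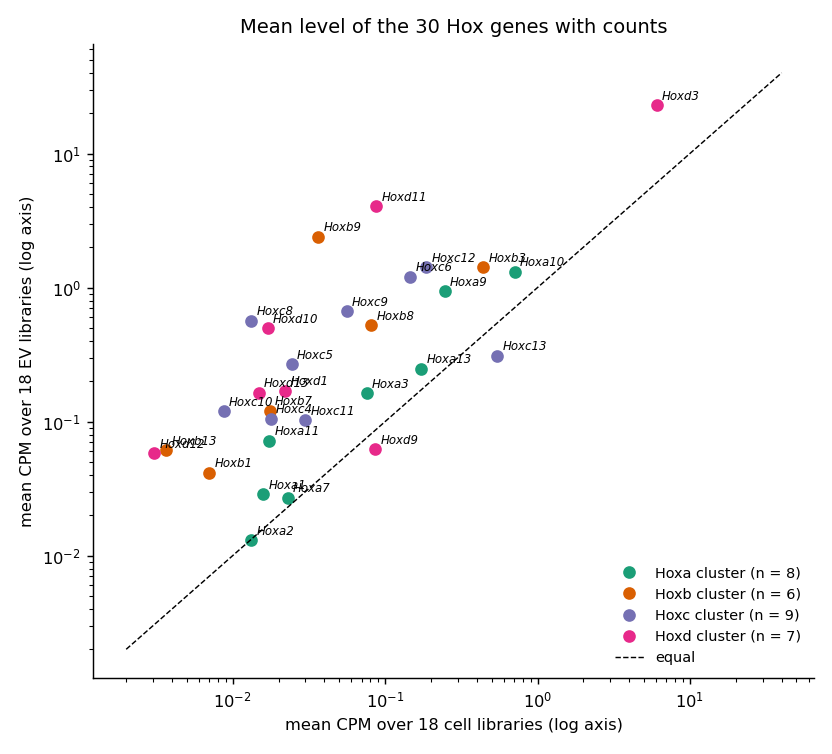
Mean CPM over 18 EV libraries (vertical) against mean CPM over 18 cell libraries (horizontal), both on log axes, for the 30 Hox genes with counts, coloured by cluster. The dashed line marks equal levels, with 27 genes above it and Hoxa2, Hoxc13 and Hoxd9 below it.

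The comparison of EVs with cells drew on all 36 libraries, with sex and dose as terms in edgeR's quasi-likelihood fit. It had no term for culture, so its p-values treat the 3 libraries of a culture at a location as independent. The filter on low counts kept 5 Hox genes, all 5 were higher in EVs, and the other 34 were not tested. Of 15281 genes tested, 80.5% passed the threshold (adjusted p under 0.05) and 38.4% did so with a higher value in EVs, and a gene that met the filter through its EV level alone had to differ, so the count of 5 is a description. With no filter, 23 of 30 Hox genes passed, all higher in EVs, beside 40.7% of 31069 features. With the 3 doses of a culture summed, 10 of 11 passed, all higher in EVs, beside 13929 of 19677 genes that passed in either direction. Log2 fold changes are on the TMM scale, on which the median of all tested genes was -0.08. Scaled to library totals it was -0.88, and the median of the 5 Hox genes went from 2.68 to 1.84.

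Hoxd3, a group 3 gene that acts in the neck vertebrae and hindbrain, is the gene with the most Hox counts. It spans 36.5 kb on chromosome 2 (GRCm39, chr2:74542271-74578786, plus strand). In EVs it had 21 to 126 counts and 5.05 to 70.8 CPM (median 12.2), and in cells 78 to 599 counts and 1.97 to 12.1 CPM (median 5.87). The ranges overlapped, yet the EV library was the higher in 16 of 18 pairs. The log2 fold change was 2.68 ± 0.32 (SE; adjusted p = 1.65e-09). Per kb of gene span, introns included, its mean CPM was above that of 79.9% of 19231 protein-coding features in EVs and of 49.3% in cells. These shares depend on that choice of length.

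Its EV level differed with the depth of the library. In the 6 EV libraries under 2 M counts (0.959 to 1.61 M; the 3 of set 4 females, 2 of set 3 males and the set 3 female control) Hoxd3 stood at 28.6 to 70.8 CPM, and in the 12 over 2 M at 5.05 to 23.0 CPM, with no overlap. In counts the groups overlapped, with 35 to 96 in the former and 21 to 126 in the latter. The ratio of the medians was 3.75, which 1.05% of 8104 features with a median of at least 20 EV counts reached or exceeded, beside a median of 1.03. Without these 6 libraries and their cell partners, a choice made after the data were seen, the log2 fold change of Hoxd3 was 1.76 (edgeR adjusted p = 1.76e-05). In that fit 6 of 6 Hox genes tested passed, all higher in EVs. Of all 14868 genes tested there, 11350 passed and 5251 did so with a higher value in EVs. A gene that met the filter through its EV level alone had to differ, so the count of 6 is a description. The part of library depth in the Hoxd3 level was not tested.

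**Figure D3:**
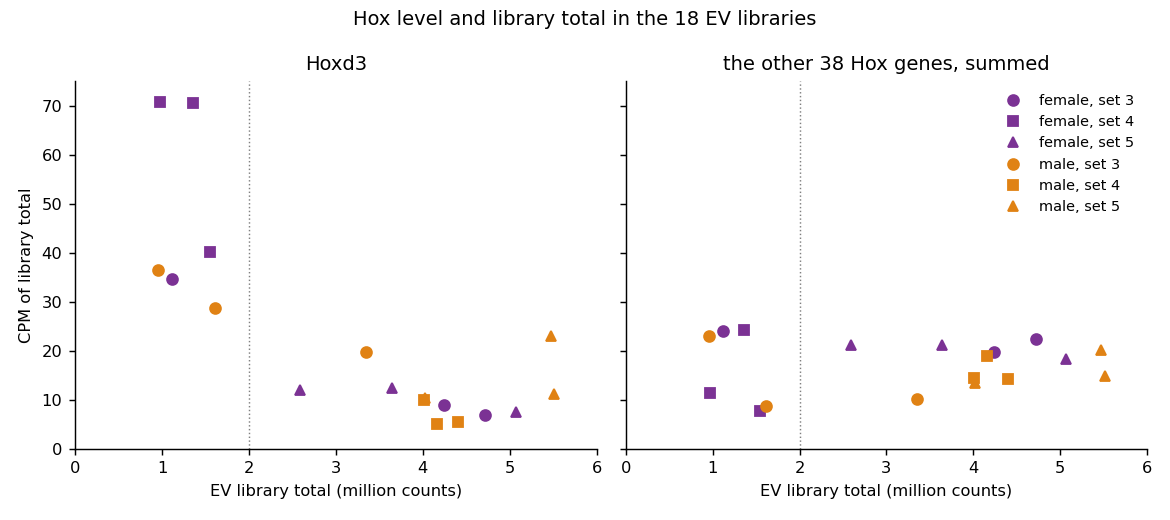
CPM in the 18 EV libraries against the library total in M counts, for Hoxd3 (left) and for the other 38 Hox genes summed (right), with colour for sex, marker shape for pregnancy set and a dotted line at 2 M. Hoxd3 is at 28.6 to 70.8 CPM left of the line and at 5.05 to 23.0 right of it, while the sum of the others lies between 7.75 and 24.3 in all 18.

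Hoxd11, a group 11 gene that patterns the forearm and the lumbosacral region, had the largest fitted difference of the 5 genes tested. It spans 7.46 kb (GRCm39, chr2:74509901-74517360, plus strand). In EVs it had 1 to 50 counts and 0.646 to 10.6 CPM (median 3.43), and in cells 0 to 7 counts and 0 to 0.235 CPM (median 0.0826). All EV libraries lay above all cell libraries. The mean was 46.5 times as high in EVs, and the log2 fold change was 6.17 ± 0.33 (SE; adjusted p = 1.60e-18). The gap rests on 238 counts over all EV libraries and 56 over the deeper cell libraries.

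Hoxb9, a thoracic group 9 gene, had more counts in EVs than in cells in sum (152 and 26) but did not pass the filter on low counts. It had 0 to 22 counts in EVs (0 to 5.22 CPM, median 2.11) and 0 to 4 in cells (0 to 0.0881 CPM, median 0.0375), and was at 0 in 3 EV and 6 cell libraries. The EV library was the higher in 15 of 18 pairs, and the mean CPM was 66.3 times as high.

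Hoxc12, a group 12 gene, had 0 to 18 counts in EVs (0 to 3.29 CPM, median 1.33) and 2 to 15 in cells (0.0608 to 0.368 CPM, median 0.180). It was the higher in EVs in 17 of 18 pairs, the exception being the set 3 male EV library at 120 mg/dL, the smallest of all, in which it had no counts. The log2 fold change was 3.97 ± 0.31 (SE; adjusted p = 4.41e-14). Hoxa10, a group 10 gene known from the uterus and from blood cell development, had 0 to 18 counts in EVs (0 to 3.61 CPM, median 0.830) and 2 to 90 in cells (0.0544 to 1.82 CPM, median 0.762). These ranges overlapped for most libraries, the EV library was the higher in 11 of 18 pairs, and the log2 fold change of 1.94 ± 0.43 (SE; adjusted p = 0.000130) was the smallest of the 5. Hoxa9, a neighbour of Hoxa10 and likewise active in blood progenitors, had 0 to 7 counts in EVs (median 0.876 CPM) and 1 to 27 in cells (median 0.254 CPM), was the higher in EVs in 14 of 18 pairs and was not tested.

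Hoxb3, a group 3 gene of the hindbrain, fell into 2 ranges in cells. It had 43 to 66 counts (1.32 to 1.76 CPM) in 4 libraries, all female, and 1 to 11 counts (0.0335 to 0.199 CPM) in the other 14, of which 5 were female. The 4 were the controls of sets 4 and 5, set 3 at 120 mg/dL and set 5 at 320 mg/dL, so that each female culture had at least 1 library in the high and 1 in the low range. In EVs it had 1 to 11 counts (0.181 to 8.09 CPM, median 0.994), the highest in the set 4 female control. The EV library was the higher in 16 of 18 pairs, and the log2 fold change was 2.56 ± 0.48 (SE; adjusted p = 1.04e-05).

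Hoxc13, a group 13 gene of hair and nails, went the other way on average through 1 library. It had 400 counts in the cells of the set 3 female control (8.81 CPM, 95% Clopper-Pearson interval 7.97 to 9.72) and 0 to 6 in the other 17 cell libraries. The EV library of the same culture and dose had 1 count. That cell library also held the most Hoxa3 counts, 42 (0.925 CPM, interval 0.667 to 1.25), against 0 to 4 elsewhere in cells. Leaving out this library and its EV partner, a choice made after the data were seen, lowered the mean summed level in cells from 9.16 to 8.69 CPM. It did not change the number of Hox genes past the threshold between EVs and cells, which was 5 of 5, beside 12251 of 15309 genes.

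**Figure D4:**
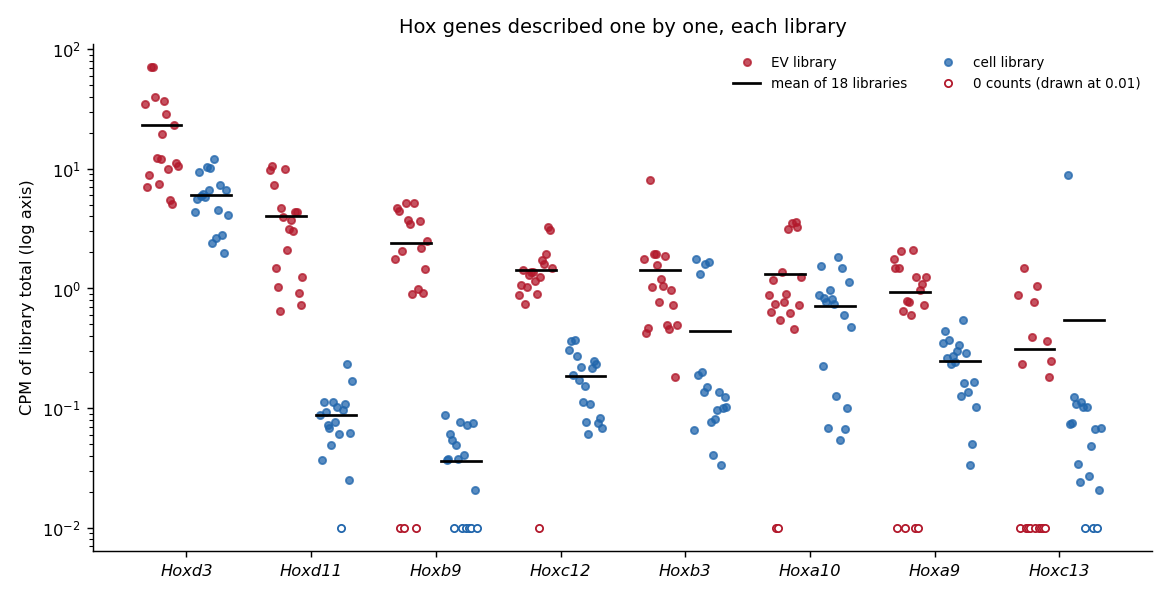
CPM on a log axis in each of 18 EV (red) and 18 cell (blue) libraries for the 8 Hox genes described one by one, with open circles at 0.01 for 0 counts and a bar at the mean of the 18. For Hoxd11 all EV points lie above all cell points, for Hoxb3 4 cell points stand apart at 1.32 to 1.76, and for Hoxc13 1 cell point stands at 8.81.

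CPM of genes of unlike length cannot be set side by side, so levels between genes are given per kb of gene span. That span includes introns, and the feature type counted is not given in the sources used here. The orders and the comparisons with other features are therefore rough, and with another length they could differ. In EVs the order was Hoxd3 (0.630 CPM per kb), Hoxd11 (0.543), Hoxb9 (0.455) and Hoxc12 (0.347), and in cells Hoxd3 (0.166), Hoxa10 (0.0731), Hoxc13 (0.0706), Hoxa13 (0.0533) and Hoxc12 (0.0452). The place of Hoxc13 rests on the 1 library with 400 counts, without which it stood at 0.00752 CPM per kb in cells (n = 17), below 12 other Hox genes. The median protein-coding feature stood at 0.0994 CPM per kb in EVs and 0.178 in cells. All 5 Hox genes named for cells were below that median there, and all 4 named for EVs above it. The 4 were picked as the highest by this same measure, so their place above the median is a description. In EVs the Hox genes with counts ran from 0.00366 (Hoxa7) to 0.630 CPM per kb and lay on both sides of it. By group, the 16 genes of groups 9 to 13 summed to 12.5 ± 4.62 CPM in EVs and 2.21 ± 2.35 in cells, and the 7 of groups 4 to 8 with counts to 2.81 ± 1.39 and 0.322 ± 0.0841 (SD, n = 18). Groups 1 to 3, nearly all of it Hoxd3, summed to 24.8 ± 21.8 and 6.62 ± 3.25 CPM. Among the Hox genes not described one by one, the highest level per kb in EVs was that of Hoxd10 (0.154 CPM per kb, 0 to 4 counts), close to Hoxc8 (0.153) and Hoxb8 (0.152), and in cells that of Hoxa13 (2 to 20 counts).

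Ethanol was compared with control within EVs and within cells, with the culture as a block. The filter kept 3 Hox genes in each location and none passed the threshold (0 of 3 at either dose). In EVs 0.00842% of 11880 genes passed at 120 mg/dL and 0.0842% at 320 mg/dL. In cells 0% of 17792 genes did at 120 mg/dL and 0.0393% at 320 mg/dL. By edgeR's quasi-likelihood test an unadjusted p under 0.05 was reached by 0 Hox genes in EVs at either dose, by 1 in cells at 120 mg/dL and by 0 in cells at 320 mg/dL. DESeq2 called 0 Hox genes in all 4 comparisons, of 1, 1, 30 and 4 that it gave an adjusted p, and its unadjusted p was under 0.05 for 1, 0, 1 and 2.

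In EVs Hoxd3 stood at 9.97 to 70.6 CPM in controls (median 21.4), 5.46 to 70.8 at 120 mg/dL (median 9.38) and 5.05 to 40.05 at 320 mg/dL (median 11.2), 6 libraries each. It was lower than control in 4 of 6 cultures at 120 mg/dL and in 5 of 6 at 320 mg/dL, with log2 fold changes of -0.38 ± 0.32 and -0.39 ± 0.32 (SE; edgeR adjusted p = 0.886 and 0.710). In cells Hoxd3 stood at 1.97 to 10.4 CPM in controls (median 4.43), 5.61 to 12.1 at 120 mg/dL (median 6.65) and 2.64 to 10.1 at 320 mg/dL (median 4.96). It was higher than control in 5 of 6 cultures at 120 mg/dL and in 3 of 6 at 320 mg/dL, with log2 fold changes of 0.86 ± 0.36 and 0.40 ± 0.36 (SE; adjusted p = 1.00 and 0.800). The doses overlapped in both locations.

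Hoxd11 in EVs had medians of 2.54, 3.54 and 4.03 CPM at 0, 120 and 320 mg/dL, with log2 fold changes of 0.32 ± 0.27 and 0.52 ± 0.27 (SE; adjusted p = 0.884 and 0.470). Hoxb9 in EVs had medians of 0.955, 3.70 and 2.33 CPM, was higher than control in 5 of 6 cultures at 120 mg/dL and in 3 of 6 at 320 mg/dL, and had log2 fold changes of 0.97 ± 0.50 and 0.56 ± 0.53 (SE; adjusted p = 0.813 and 0.756). Hoxb3 in EVs, not tested for dose, was lower than control in 6 of 6 cultures at 120 mg/dL, with 2 to 11 counts in controls (median 1.49 CPM) and 1 to 8 at 120 mg/dL (median 0.740 CPM). Hoxc6 in EVs, likewise not tested, was lower in 6 of 6 cultures at 320 mg/dL, with 2 to 9 counts in controls (median 1.65 CPM) and 0 to 6 at 320 mg/dL (median 0.746 CPM). Over all Hox genes, both locations and both doses, no other case had 1 direction in all 6 cultures. In cells, Hoxa10 was lower than control in 5 of 6 cultures at 320 mg/dL. Its log2 fold change there was -1.27 ± 0.68 (SE; adjusted p = 0.639), and that of Hoxa9 -0.16 ± 0.40 (adjusted p = 0.940). At 120 mg/dL the values were 0.82 ± 0.59 for Hoxa10 and 0.42 ± 0.36 for Hoxa9 (adjusted p = 1.00 for both). For the genes tested, differences of this size did not stand out from the spread between libraries that the culture block left, at this depth.

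**Figure D5:**
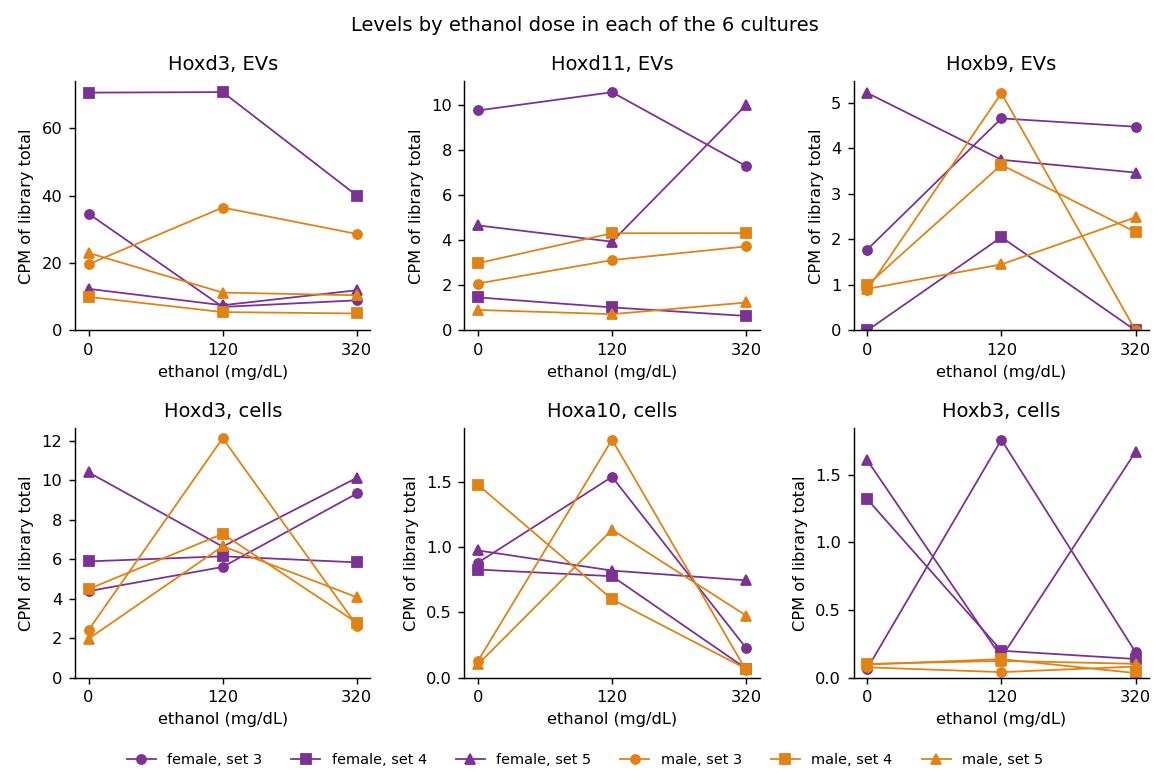
CPM at 0, 120 and 320 mg/dL ethanol in each of the 6 cultures (colour for sex, marker for pregnancy set, lines joining a culture) for Hoxd3, Hoxd11 and Hoxb9 in EVs and Hoxd3, Hoxa10 and Hoxb3 in cells. Hoxd3 in cells is highest at 12.1 in 1 male library at 120 mg/dL, and Hoxb3 in cells is at 1.32 to 1.76 in 4 female libraries and at most at 0.199 in the other 14.

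The summed Hox level in EVs was 47.4 ± 26.2 CPM without ethanol, 40.4 ± 24.7 at 120 mg/dL and 32.5 ± 9.15 at 320 mg/dL (SD, n = 6), and was below control in 5 of 6 cultures at each dose. The exception was set 3 males, with a control of 3.35 M counts (29.8 CPM) beside 0.959 and 1.61 M with ethanol (59.4 and 37.4). Set 3 females had a control of 1.12 M (58.7 CPM) beside 4.72 and 4.24 M (29.4 and 28.7). EV libraries of each culture of sets 4 and 5 stayed on the same side of 2 M counts. The part of library depth in these sums was not tested. In cells the summed level was 9.21 ± 5.76, 10.5 ± 2.68 and 7.75 ± 4.29 CPM, with 3 and 4 of 6 cultures below control. The change of the EV to cell ratio with ethanol was fitted as the interaction of location and dose over the pairs. No Hox gene passed (0 of 11 tested at each dose), beside 0.00534% of 18728 genes at 120 mg/dL and 0% at 320 mg/dL. By edgeR's quasi-likelihood test, an unadjusted p under 0.05 was reached by 1 Hox gene at 120 mg/dL and by 0 at 320 mg/dL. That gene was Hoxb9, with a log2 change of the ratio of 2.01 ± 0.96 (SE; adjusted p = 1), and Hoxd3 had -1.28 ± 0.67 (adjusted p = 1).

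Females and males were compared apart in EVs and in cells, and dose was a term of the fit. In EVs 2 Hox genes were tested and Hoxd11 passed, higher in females, beside 11.1% of 11037 genes. It stood at 0.646 to 10.6 CPM in 9 female EV libraries (median 4.67) and at 0.726 to 4.33 in 9 male ones (median 2.99). The sexes overlapped, and the difference was not of 1 direction across pregnancies. In sets 3 and 5 the 3 female libraries (7.30 to 10.6 CPM in set 3, 3.95 to 10.0 in set 5) lay above the 3 male ones (2.09 to 3.74 and 0.726 to 1.24), and in set 4 the females (0.646 to 1.47) lay below the males (2.99 to 4.33). The log2 fold change was 1.41 ± 0.38 (SE; edgeR adjusted p = 0.0295), and 1.36 with the pregnancy as a block (adjusted p = 0.0206). It did not pass with library totals (1.21, adjusted p = 0.112), with the 3 doses of a culture summed (1.33, 0.341), without set 3 (1.05, 0.149) or without the EV libraries under 2 M counts (1.63, 0.0677), and without set 5 it was not tested. Over all genes, 314 of 11037 passed with library totals and 0 of 14847 with the doses summed. Without set 3 it was 2616 of 11306, and without the EV libraries under 2 M counts 30 of 11551. The 3 libraries of a culture are not independent animals, and the 3 female and 3 male cultures are the units.

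Hoxd3 in EVs had a median of 12.4 CPM in females and 11.3 in males, and the log2 fold change was 1.01 ± 0.57 (SE; adjusted p = 0.228). It turned to -0.05 without the EV libraries under 2 M counts (adjusted p = 0.943) and to -0.66 without set 4 (adjusted p = 0.298). In cells 2 Hox genes were tested and 0 passed by edgeR's quasi-likelihood test (1 at an unadjusted p under 0.05), beside 5.83% of 17052 genes. Hoxd3 stood at 4.38 to 10.4 CPM in female cells (median 6.15) and 1.97 to 12.1 in male cells (median 4.08), with a fitted difference of 0.87 ± 0.29 on the log2 scale (SE; adjusted p = 0.0838). DESeq2, which kept more scarce genes, called 2 of 9, Hoxd3 (0.84, adjusted p = 0.0357) and Hoxb3 (3.19, adjusted p = 3.60e-05), beside 2071 of 20898 genes. With no filter edgeR called 1 of 30, beside 937 of 30506 genes. That was Hoxb3 (3.13, adjusted p = 0.0109), whose 4 high libraries were all female. With the 3 doses of a culture summed, so that each culture counts once, 0 of 8 Hox genes tested passed in cells (2 at an unadjusted p under 0.05), with 3.14 for Hoxb3 (adjusted p = 0.280) and 0.52 for Hoxd3 (adjusted p = 0.768). Over all genes only 7 of 20972 passed in that fit, so not passing there is not particular to the Hox genes.

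Pregnancies were compared over the 3 sets with terms for sex and dose. None of 3 Hox genes passed in EVs (Hoxb9, Hoxd3 and Hoxd11; edgeR adjusted p from 0.517 to 0.651), beside 19.7% of 11880 genes, and none of 3 in cells (Hoxa9, Hoxa10 and Hoxd3; 0.356 to 0.928), beside 40.4% of 17792 genes. The number at an unadjusted p under 0.05 was 0 in both locations. The summed Hox level in sets 3, 4 and 5 was 40.6 ± 14.7, 48.8 ± 32.5 and 30.9 ± 7.19 CPM in EVs and 10.3 ± 5.83, 7.93 ± 2.13 and 9.25 ± 4.62 CPM in cells (SD, n = 6).

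Genes around and upstream of the Hox clusters were taken from lists and counted in the comparison of EVs with cells, where 80.5% of all genes tested passed and the median log2 fold change was -0.08. These lists were tested on the TMM scale only, and since that median was -0.88 on library totals, list values between 0 and about that shift can turn sign there. Of 20 listed noncoding RNAs of the clusters, 17 were among the features, 6 were at 0 everywhere and 1, Gm53, was tested and did not pass (log2 fold change 0.73). Hotairm1, which lies at the start of the Hoxa cluster, had 0 to 4 counts in an EV library and 3 to 34 in a cell library, and Hottip, at its other end, 0 to 7 and 4 to 31. Of 10 genes that flank the clusters, 8 were tested, with 3 higher and 4 lower in EVs (median -0.50). Skap1, an adaptor of lymphocytes next to Hoxb, was higher in EVs by 3.43 ± 0.22 (log2, SE) and Ttll6 by 2.60 ± 0.22, as was Smug1, a DNA repair enzyme, by 1.502 ± 0.14. Mtx2, a mitochondrial import protein next to Hoxd, was lower at -2.17 ± 0.16.

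Of the 9 TALE homeodomain cofactors, which bind DNA together with Hox proteins, 9 were tested, with 3 higher and 2 lower in EVs (median 0.26). Pknox1 (1.92 ± 0.12, log2, SE) and Pbx4 (1.39 ± 0.20) were higher in EVs, and Meis1 (-1.84 ± 0.17) and Meis2 (-1.36 ± 0.12) lower. Meis2 stood at 131 ± 33.2 CPM in cells (SD, n = 18). Of 10 inducers of Hox genes, 9 were found and 6 tested, with 4 higher and 2 lower (median 1.25). Egr2, the Krox20 factor that acts on Hox genes in the hindbrain, was lower in EVs (-4.19 ± 0.57), with 120 to 8647 counts in cells and 0 to 15 in EVs. The retinoic acid receptors Rarb (1.67 ± 0.16) and Rarg (1.30 ± 0.22) were higher.

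All 17 Polycomb genes, which encode the complexes that keep Hox clusters silent, were tested, with 9 higher and 7 lower in EVs (median 0.56). Jarid2, a subunit of the methylating complex, was higher (1.97 ± 0.33, log2, SE) and had a mean of 2159 CPM in cells. Cbx2 (1.59 ± 0.17) and Phc1 (1.47 ± 0.11), parts of the ubiquitinating complex, were higher, and its catalytic subunit Rnf2 was lower (-1.64 ± 0.09). Of 9 trithorax genes and demethylases, which keep Hox genes active, 2 were higher and 4 lower (median -0.33). Kmt2a, the methyltransferase of active Hox genes, was higher in EVs (2.81 ± 0.16), as was its partner Wdr5 (1.85 ± 0.09), and the demethylase Kdm6a (-2.54 ± 0.15) and the cofactor Men1 (-1.23 ± 0.15) were lower. Members of each list thus moved in both directions, save the single tested noncoding RNA.

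Marker lists of cell types were counted in the same comparison. All 3 spinal cord markers tested of 5 were higher in EVs, Pax7 by 5.00 ± 0.21 (log2, SE), Tlx3 by 4.74 ± 0.28 and Pax3 by 2.96 ± 0.23. In cells Pax7 and Pax3 had means of only 0.566 and 0.560 CPM. Of all genes tested, 38.4% passed with a higher value in EVs, and a gene that met the filter through its EV level alone had to differ. The count of 3 is therefore a description. Tlx3, a factor of sensory relay neurons of the dorsal spinal cord, had 22 to 452 counts in an EV library and 30 to 205 in a cell library. Of 7 telencephalic progenitor markers tested, 3 were higher and 3 lower in EVs (median -0.32), of 4 midbrain and hindbrain markers 2 and 1 (median 1.15), of 3 neuron markers 0 and 1 (median 0.29), of 4 oligodendrocyte lineage markers 1 and 1 (median -0.29), and of 3 mesenchymal and endothelial markers 2 and 1 (median 1.68). None of the 4 blood and microglia markers was tested, and their summed level was 0.455 to 8.83 CPM in EVs and 0.264 to 0.629 CPM in cells. The part of any of these cell types in the Hox values was not tested.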

How the data were processed

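RNA was isolated from EVs and from cells of the 6 cultures at 3 doses, depleted of ribosomal RNA, made into stranded libraries and sequenced in a single pooled NovaSeq run. Per the study's methods and the labels, the authors trimmed and deduplicated reads, aligned them with STAR to mm39 (GRCm39) and counted them with HTSeq. The annotation, feature type and strand setting of the counting are not given in the sources used here. The deposited values are whole-number counts per gene, with 1 column per library, and no other normalization was applied to them by the authors.

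CPM were computed on library totals, of 0.959 to 5.51 M (mega) counts in EVs and 26.6 to 55.3 M in cells, so that 3 counts stood for up to 3.13 and 0.113 CPM. Counts were tested in R 4.3.3 with edgeR 4.0.16 (filterByExpr with a minimum count of 10 and a minimum total of 15, TMM scaling, quasi-likelihood F test) on all genes, with Benjamini-Hochberg adjustment over all genes tested and a threshold of 0.05. Standard errors were taken as the log2 fold change over the square root of F. DESeq2 1.42.0 was an alternative, as were other scalings, no filter, blocks, counts summed over doses and leaving out each pregnancy. Tests were tried on simulated data. Sets 3, 4 and 5 are pregnancies per the labels, so the numbers pair the samples. Deviations from group means had a median correlation of 0.72 and 0.62 between doses of a cell culture, 0.19 and 0.21 between doses of an EV culture, 0.07 between an EV library and its cell partner, and 0.38 (cells) and 0.11 (EVs) between the sexes of a pregnancy. P-values measure the spread between libraries, and 3 libraries at a location share a culture.

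Hox genes were all symbols of the pattern given in the report. Described one by one were those past the threshold in any comparison and the 5 with the highest mean CPM in each location, and from each other list up to 4 genes with the largest change past the threshold. Some genes of those lists are not reported here by name. The genes and lists were chosen with earlier results of these data known. All 39 symbols were found in GENCODE on GRCm39. Promoters and microRNAs came from RefSeq on GRCm38.p6, in which 22 Hox genes had a promoter entry, and positions of the 2 builds were not mixed. Figures were drawn with matplotlib 3.10.9.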

Additional observations from a re-analysis of the deposited data

Results flagged for a closer look

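For the 8 Hox genes described one by one, 80 groups of 6 or 9 libraries (by location and by sex or dose) were searched for a library far from its group by Dixon's ratio of gap to range. A gap past the 95% critical value was found in 13 groups. The chance rate of about 1 in 20 for this test assumes normally distributed values and separate groups. Many values here rest on few counts, and each library lies both in a group by sex and in a group by dose. The 13 groups are therefore a description and are not set against that rate.

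In cells, the set 3 female control held Hoxc13 at 8.81 CPM (400 counts), among females (others 0.0244 to 0.123 CPM) as among controls (others 0 to 0.123 CPM). Hoxb3 stood at 1.76 CPM (48 counts) in the set 3 female library at 120 mg/dL (others 0.0406 to 0.199) and at 1.67 CPM (65 counts) in the set 5 female library at 320 mg/dL (others 0.0335 to 0.188). The set 3 male library at 120 mg/dL held Hoxd3 at 12.1 CPM (599 counts; others at that dose 5.61 to 7.29) and Hoxa9 at 0.547 CPM (27 counts; other males 0.0335 to 0.291).

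In EVs, Hoxb3 stood at 8.09 CPM in the set 4 female control, on 11 counts, among females (others 0.424 to 1.94) as among controls (others 0.498 to 1.92), and the cell library of the same culture and dose was among the 4 with high Hoxb3. Hoxd11 stood at 10.6 CPM (50 counts) in the set 3 female library at 120 mg/dL (others 0.726 to 4.32). Hoxb9 stood at 5.22 CPM (19 counts) in the set 5 female control (others 0 to 1.78), and Hoxa10 at 3.61 CPM (15 counts) in the set 4 male library at 320 mg/dL (others 0 to 1.24). Hoxc13 stood at 1.04 CPM in the set 3 male library at 120 mg/dL (other males 0 to 0.365) on 1 count, and at 0.771 CPM in the set 5 female library at 320 mg/dL (others 0 to 0.249) on 2 counts.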

How the results depend on the processing

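For single Hox genes, 347 values under an alternative kept their direction and their side of the threshold. For the comparisons of pregnancies only the side of the threshold was compared. Of the others, 4 lost the threshold (Hoxd11 between the sexes in EVs, values in the report) and 1 gained it (Hoxd3 between the sexes in cells by DESeq2, 0.84). A further 25 turned direction, none of them past the threshold in either fit. Against 5 Hox genes past the threshold between EVs and cells, there were 23 with no filter, 10 with counts summed over doses, 27 by DESeq2 and 3 to 4 without 1 pregnancy, where all Hox genes tested passed. Of genes of any kind, DESeq2 called 23256 of 30942, with 16946 higher in EVs. Without set 3, 4 or 5, edgeR called 11638 of 15062, 11243 of 14897 and 11325 of 14810. The shares for no filter and summed counts are in the report. Against 1 between the sexes in EVs, there were 0 with library totals, 2 with no filter, 0 with summed counts, 0 without the EV libraries under 2 M counts and 0 to 1 without 1 pregnancy. Of genes of any kind, 0 of 14847 passed in that comparison with summed counts and 1805 of 29604 with no filter. Against 0 between the sexes in cells there was 1 with no filter and 2 by DESeq2. Between pregnancies in cells there was 1 with no filter (Hoxc12) against 0, beside 6509 of 30506 genes of any kind. No Hox gene passed for ethanol under any alternative run. The number of Hox genes tested differed between these fits, and the cause of the changes was not tested. The replicate block changed no call, with 5 genes between EVs and cells with the pair as a block and 1 and 0 between the sexes with the pregnancy as a block, and without the block 0 for ethanol. At the smallest total 9.34 of 30 Hox genes were expected with counts in an EV library and 3.02 in a cell library. Without Hoxd3 the mean summed level was 17.1 CPM in EVs and 3.11 CPM in cells. Leaving out the EV libraries under 2 M counts or the set 3 female control was chosen after seeing the data. EV depth limits the rest, since 3 counts there stood for at least 0.544 CPM.

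The log2 values that turned direction were those of Hoxd3 between the sexes in EVs (-0.054 without the EV libraries under 2 M counts, -0.66 to 1.68 without 1 pregnancy), of Hoxa9 in cells (-0.045 to 1.06 at 120 mg/dL and -0.53 to 0.37 at 320 mg/dL without 1 pregnancy) and of the change of the EV to cell ratio. At 120 mg/dL that change ran, without 1 pregnancy, from -2.49 to 0.51 for Hoxb3, -0.34 to 0.44 for Hoxc12, -0.25 to 0.72 for Hoxc6, -0.45 to 0.55 for Hoxc8, -1.21 to 0.68 for Hoxc9 and -0.45 to 0.76 for Hoxd11, and with library totals it was -0.052 for Hoxc12, -0.17 for Hoxc6 and -0.046 for Hoxd11. At 320 mg/dL it ran from -0.50 to 2.498 for Hoxa10, -0.95 to 0.96 for Hoxa9, -1.10 to 0.60 for Hoxb3, -0.19 to 0.76 for Hoxc12, -1.63 to 0.035 for Hoxc8 and -0.34 to 0.17 for Hoxd11, and for Hoxb3 it was -0.012 with median-of-ratios size factors, -0.18 with library totals and -0.20 with no replicate block. The cause was not tested.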

Other observations

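Evx2, the homeobox gene beside Hoxd13, had 0 to 651 counts in EVs with a median of 1 count, and 0 to 13 counts in cells. Its mean in EVs was 6.81 ± 28.0 CPM (SD, n = 18), and the 651 counts came from 1 library.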
